A study of Homo sapiens with 9 samples.

Results

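DEPP1, 3 FOXO transcription factor genes and 5 genes known to respond to FOXO factors were followed in U87, an established line of human glioma cells, transfected with a microRNA. The 9 genes were taken by symbol from the probe table, with every probe set that names 1 of them alone, out of 19775 genes so named. DEPP1 was chosen by its far lower signal with miR-376a*G than with the control duplex, so its values in that comparison describe how it was chosen and carry no test. The other 8, namely FOXO1, FOXO3, FOXO4, CITED2, IRS2, BCL6, SESN3 and TXNIP, were named for their place in FOXO biology, with earlier results of these arrays known.

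There were 9 arrays in 3 groups of 3, labelled as biological replicates: cells given miR-376a*A, cells given miR-376a*G, and cells given a control microRNA (miR-control). The A and G forms stand for the unedited and the edited microRNA, since adenosine editing gives inosine, which pairs like guanosine, and the groups are called unedited, edited and control below. All groups shared the line, 50 nM of duplex delivered with Lipofectamine RNAiMAX, and 72 h of further incubation. The study asked which genes each form changes relative to the control duplex.

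FOXO proteins are forkhead transcription factors that sit at the end of insulin and growth factor signalling. When the kinase AKT is active it phosphorylates them and they are held in the cytoplasm; when it is not, they enter the nucleus and activate genes of cell cycle arrest, antioxidant defence, autophagy and insulin signalling itself. Their activity is thus set largely by modification and location, which arrays do not measure. DEPP1 encodes a small protein named for its induction by progesterone in the decidua, is activated by FOXO factors, and has been tied to autophagy and to the handling of reactive oxygen species.

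The genome-encoded mature strand that corresponds to miR-376a* is shown first because it is the agent whose 2 forms were compared. It lies at chr14:101040788-101040809 on the plus strand (RefSeq, GRCh38.p14), and capitals mark its seed, bases 2 to 8. The sequences of the transfected duplexes are not given in the labels.
hsa-miR-376a-5p: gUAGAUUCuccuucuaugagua

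Stretches ahead of 3 start sites are shown because they hold one of 2 letter strings searched for on both strands, GTAAACA, the core that FOXO proteins are known to prefer, and CAAAACA, as in insulin response elements. Capitals mark the string. DEPP1 (chr10:44978810-44979059, minus strand) holds GTAAACA with its first base 180 bases ahead of the start site, TXNIP (chr1:145996650-145996750, minus strand) holds it 124 bases ahead, and IRS2 (chr13:109786584-109786670, minus strand) holds CAAAACA on the opposite strand, 40 bases ahead. All are from RefSeq, GRCh38.p14, printed 5′ to 3′ on the gene's strand.
DEPP1: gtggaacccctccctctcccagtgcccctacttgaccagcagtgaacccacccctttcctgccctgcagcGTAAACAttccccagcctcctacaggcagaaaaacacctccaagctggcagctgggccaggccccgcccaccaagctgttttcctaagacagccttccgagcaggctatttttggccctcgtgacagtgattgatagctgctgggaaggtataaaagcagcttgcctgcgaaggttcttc
TXNIP: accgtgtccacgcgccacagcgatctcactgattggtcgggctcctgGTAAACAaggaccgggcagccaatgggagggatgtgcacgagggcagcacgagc
IRS2: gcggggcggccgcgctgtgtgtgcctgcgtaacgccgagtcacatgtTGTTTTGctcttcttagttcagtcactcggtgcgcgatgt

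In windows of 250 bases before to 50 after each start site, GTAAACA stood in 3 of the 9 genes' 16 windows. Besides DEPP1 and TXNIP the third was FOXO4, where it begins 24 bases past the start site. CAAAACA stood in 1 window, that of IRS2, and the windows of FOXO1, FOXO3, CITED2, BCL6 and SESN3 held neither. Over all 35116 windows, 3.42% held GTAAACA and 4.92% held CAAAACA. The share with GTAAACA was 3.78% among 2594 windows of genes called lower with the edited form than with the control, 2.30% among 2526 windows of genes called higher, and 2.52% among 9768 windows of tested genes not called. For CAAAACA the shares in the same windows were 3.74%, 3.21% and 3.68%. These shares were not tested. These are matches of letters, not binding sites.

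Values below are the deposited linear signals, which the scaling of each array sets relative to the rest of that array. The median signal of an array lay between 18.0 and 24.6. Differences are of log2(signal + 1), so the change of a dim gene is understated. A gene was tested through the brightest of its probe sets by mean log2 signal if 3 or more arrays had it above their own median, which kept 12587 genes and 8 of the 9. A gene was called when its adjusted p, from limma with Benjamini-Hochberg adjustment over all tested genes, was under 0.05. Since nothing says how the replicates were grown, p-values measure only the spread between these samples. Fewer cells that express a gene and less of its RNA per cell cannot be told apart in such bulk samples.

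Replicate 1 of miR-376a*A and replicate 1 of miR-control, as labelled, stood apart from their groups. Over tested genes the first correlated at 0.987 and 0.990 with control replicates 2 and 3 but at 0.925 and 0.934 with unedited replicates 2 and 3. The other correlated at 0.990 and 0.982 with unedited replicates 2 and 3 but at 0.935 and 0.934 with control replicates 2 and 3. These are correlations across genes, which are not independent replicates. Groups are given as labelled, and results that rest on these arrays are given again without both. Of 8 glioma line and mesenchymal markers 6 were tested, VIM, NES, CD44, SPARC, FN1 and SOX2, while GFAP, a defining marker of astrocytes, and S100B were too dim. Of the 4 epithelial markers and of the 2 measured leukocyte markers 0 were tested, and of oligodendrocyte and endothelial markers 1 each. Neuronal markers (3 of 5 tested) summed to 586 to 2242 on the unedited arrays, 308 to 310.3 on the edited arrays and 547 to 2031 on the control arrays. The glioma line markers were also lowest on the edited arrays, with sums of 8576 to 11408, 6383 to 6783 and 7703 to 9338 in the same order. The part of either group of markers in the results below was not tested.

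DEPP1 signal was 254, 418 and 331 on the unedited arrays in the order of their replicate numbers, 8.65, 17.1 and 9.98 on the edited arrays, and 383, 367 and 279.6 on the control arrays. All 3 edited arrays lay far below the other 6, and the unedited and control arrays overlapped. Group means were 335 ± 81.9, 11.9 ± 4.54 and 343 ± 55.6 (SD, n = 3 each). The log2 difference was -4.78 (SE 0.27) between edited and control and 4.73 (SE 0.27) between unedited and edited. On the edited arrays DEPP1 was below the array median every time, so the size of the difference depends on the pseudocount: it was -3.69 with 16 and -2.42 with 64. The other DEPP1 probe set gave 65.7, 108 and 87.2 for unedited, 15.6, 9.48 and 15.7 for edited, and 94.6, 109 and 77.2 for control, a log2 difference of -2.71 between edited and control. Both probe sets thus had the same order of groups.

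Between unedited and control, a contrast that did not choose it, DEPP1 differed by -0.05 (SE 0.27, adjusted p = 0.968, limma). Without the 2 arrays that stood apart the difference was 0.22 (SE 0.27, adjusted p = 0.555). The DEPP1 levels of these groups lay within their spread of each other, and the order of their means rested on which arrays were used.

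**Figure D1:**
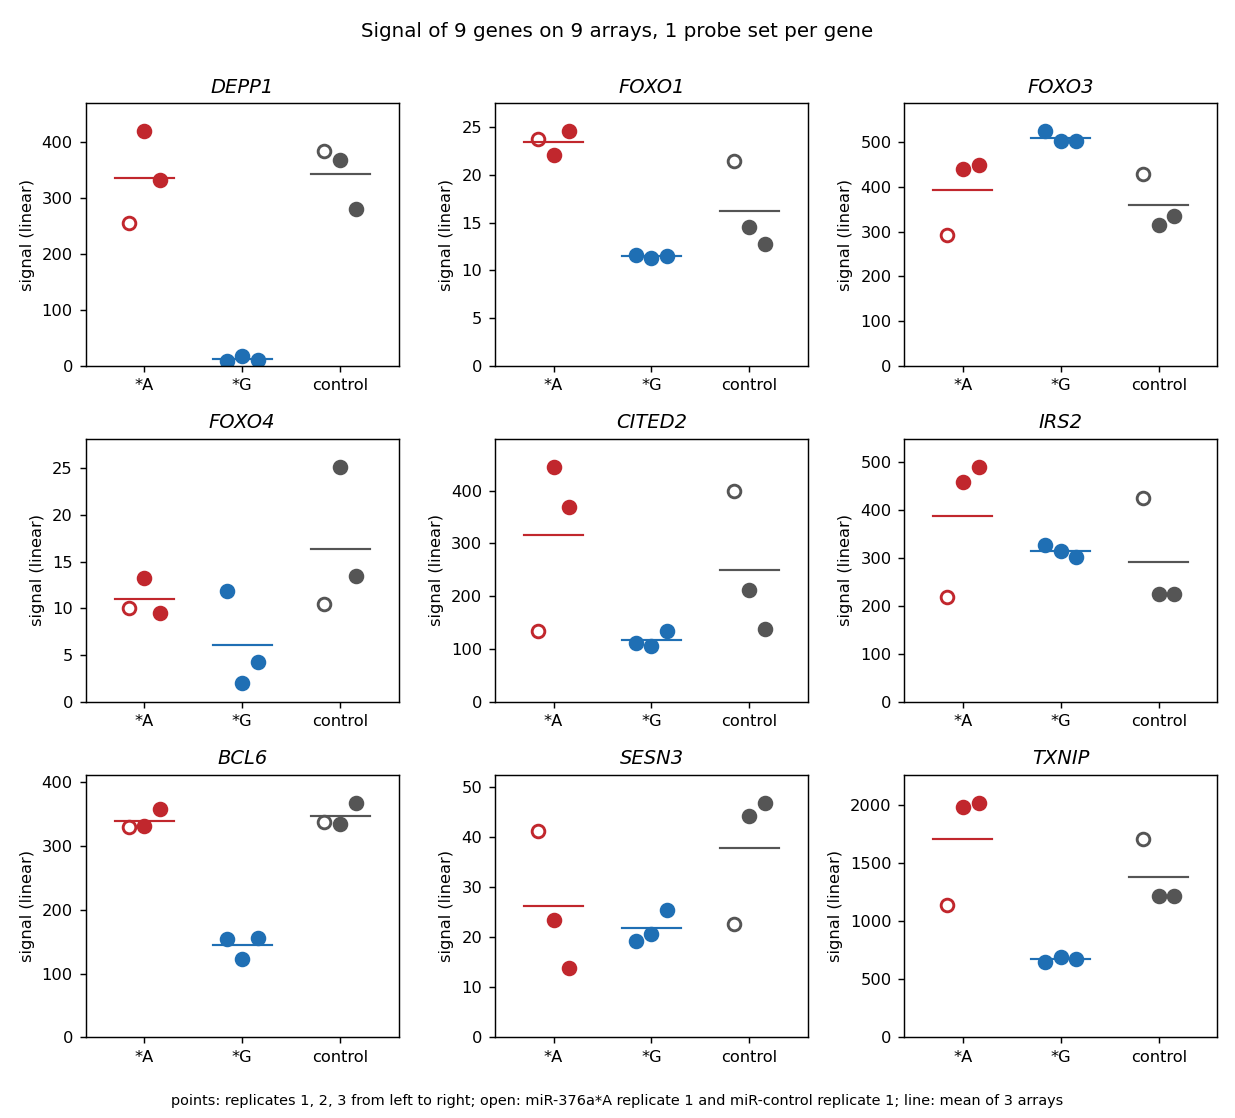
Linear signal (vertical axis, from 0) of DEPP1, the 3 FOXO genes and the 5 FOXO-responsive genes on each array, for miR-376a*A, miR-376a*G and control from left to right; each point is an array and each line a group mean. DEPP1, BCL6 and TXNIP are lowest on the 3 miR-376a*G arrays, FOXO3 is highest there, and CITED2, IRS2 and TXNIP are high on miR-376a*A replicates 2 and 3 and control replicate 1.

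Among the factors themselves, FOXO3, a widely expressed member of the family, was highest with the edited form. Its signal was 292, 439.7 and 449 on the unedited arrays, 524, 503 and 504 on the edited arrays, and 429, 315 and 336 on the control arrays. The edited arrays lay above the other 6, while unedited replicates 2 and 3 and control replicate 1 lay above the remaining 3 arrays. The log2 difference was 0.52 (SE 0.18) between edited and control and -0.40 (SE 0.18) between unedited and edited. The gene's 3 other single-gene probe sets gave 0.83, 0.60 and 1.47 between edited and control, the last of them dim, and on all 4 the edited arrays lay above the other 6.

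FOXO1, the family member best known from insulin signalling in liver, was dim in every group. Its signal was 23.8, 22.1 and 24.5 on the unedited arrays, 11.7, 11.3 and 11.5 on the edited arrays and 21.5, 14.5 and 12.8 on the control arrays. It passed the filter only through the unedited arrays, which were the highest. The log2 difference was -0.44 (SE 0.24) between edited and control and 0.97 (SE 0.24) between unedited and edited. Another probe set had 17.2, 28.7 and 17.9 with the unedited form, 3.12, 12.4 and 3.11 with the edited form, and 24.4, 18.3 and 22.4 in control. There the difference was -1.89 between edited and control and -0.06 between unedited and control, whose arrays overlapped, and the gene's remaining probe set was too dim to test. FOXO4, whose single probe set was too dim to test, had 10.1, 13.3 and 9.51 with the unedited form, 11.9, 1.97 and 4.25 with the edited form, and 10.4, 25.1 and 13.4 in control, and its groups overlapped. FOXO3 and FOXO1 thus lay on opposite sides of the control with the edited form, but neither gene was called (adjusted p = 0.0579 and 0.191, limma). With each probe set tested on its own, another probe set of each was called (adjusted p = 0.0155 and 0.0142). That of FOXO1 passed the filter only through unedited and control arrays, so nothing is read from its call. A further FOXO3 probe set was not called (adjusted p = 0.0822). Without the 2 arrays that stood apart FOXO3 was called at 0.65 (adjusted p = 3.6e-05, limma), in a fit that called 56.1% of all tested genes. FOXO1 was not called there (-0.23, adjusted p = 0.504). Choosing the arrays in that manner makes these p-values no independent evidence.

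BCL6, a transcriptional repressor that FOXO factors activate in lymphoid cells, had the same order of groups as DEPP1. Its signal was 329.6, 332 and 358 on the unedited arrays, 154, 124 and 156 on the edited arrays and 338, 334 and 367 on the control arrays. The edited arrays did not overlap with the others, and the 2 arrays that stood apart over all genes did not stand apart here. Group means were 339.9 ± 16, 145 ± 18.3 and 347 ± 18.0 (SD, n = 3 each). The log2 difference was -1.26 (SE 0.12) between edited and control, 1.23 (SE 0.12) between unedited and edited, and -0.03 (SE 0.12, adjusted p = 0.962, limma) between unedited and control. On its other probe sets the difference between edited and control was -1.47 and -1.15.

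TXNIP, which binds and inhibits thioredoxin and curbs glucose uptake, was bright on every array. Its signal was 1137, 1978 and 2015 with the unedited form, 649, 688 and 675 with the edited form, and 1705, 1214 and 1214 in control. The edited arrays were lowest, and unedited replicates 2 and 3 with control replicate 1 were highest. The log2 difference between edited and control was -1.02 (SE 0.22), and -0.96 and -1.11 on its other 2 probe sets. Between unedited and edited it was 1.30 (SE 0.22).

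CITED2, a coregulator that competes with HIF1 for its coactivators and is itself induced by FOXO3 and by hypoxia, had 135, 444 and 369 with the unedited form, 110.4, 106 and 134 with the edited form, and 398, 211 and 138 in control. The edited arrays were lowest by a narrow margin, and the other 2 groups each held arrays that were high and arrays that were low. The log2 difference between edited and control was -0.96 (SE 0.48), or -0.55 without control replicate 1. On the other bright CITED2 probe set the edited arrays, at 100.2, 103 and 113, overlapped with both groups.

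IRS2, an adaptor of the insulin receptor that FOXO factors activate when insulin is low, did not follow DEPP1. Its signal was 218, 457 and 489 with the unedited form, 326, 315 and 301 with the edited form, and 426, 224 and 225 in control. The edited arrays lay between the high and the low arrays of the other groups. The log2 difference between edited and control was 0.18 (SE 0.33), or 0.48 without the 2 arrays that stood apart. The other IRS2 probe set gave 148, 332 and 350.0 with the unedited form, 302, 332 and 294 with the edited form, and 308, 150.5 and 142 in control. Its difference was 0.72 between edited and control and -0.26 between unedited and edited, where the first probe set gave 0.22, so the 2 probe sets disagreed in sign there. SESN3, a sestrin through which FOXO factors restrain growth signalling, had 41.2, 23.4 and 13.8 with the unedited form, 19.2, 20.7 and 25.4 with the edited form, and 22.6, 44.2 and 46.7 in control. All 3 groups overlapped, 6 of its 7 probe sets were too dim to test, and the difference between edited and control was -0.71 (SE 0.40), or -1.04 without the 2 arrays.

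Of the 8 tested genes 3 were called between edited and control, all lower: DEPP1, BCL6 and TXNIP. Over all tested genes 33.4% were called in that comparison, 15.4% lower and 18.0% higher, and since it is the one that chose DEPP1 nothing is read from the count. With every probe set tested on its own, 9 of the 18 that passed the filter were called lower and 1, of FOXO3, higher. Over all 24316 probe sets tested 3802 were called lower and 4045 higher. Among the 9 are both of DEPP1 and a FOXO1 probe set that passed the filter only through unedited and control arrays. In 5 of the 8 genes (DEPP1, FOXO1, CITED2, BCL6 and TXNIP) all 3 edited arrays lay below the other 6, an arrangement that 18.9% of tested genes had, and in 1, FOXO3, they lay above, as in 26.4% of tested genes. Nothing is read from the 5 either, since DEPP1 was chosen by the edited arrays and FOXO1 passed the filter only through the unedited arrays. Without the 2 arrays that stood apart 5 of the 8 were called lower and 2 higher between edited and control, against 25.0% and 31.2% of all tested genes (56.1% in either direction). That count again includes DEPP1. IRS2 and SESN3 had neither arrangement. Without the 2 arrays IRS2 was among those called higher (0.48, adjusted p = 4.8e-04, limma) and SESN3 among those called lower (-1.04, adjusted p = 0.00633). Their direction depended on the processing: IRS2 was at -0.05 with median-centred arrays and SESN3 at 0.19 with its probe sets averaged.

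**Figure D2:**
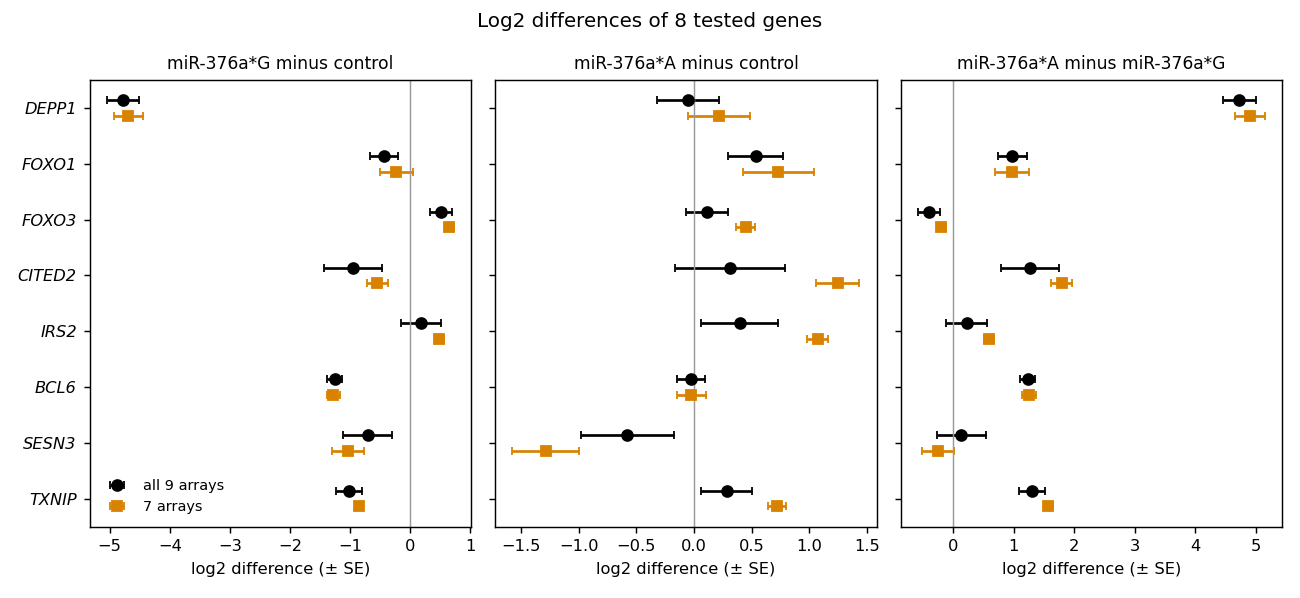
Log2 difference with its standard error (horizontal axis) of the 8 tested genes in each comparison, from all 9 arrays (black circles) and from 7 arrays without miR-376a*A replicate 1 and miR-control replicate 1 (orange squares). DEPP1 is near -4.78 between miR-376a*G and control; between miR-376a*A and control, DEPP1 and BCL6 stay near 0 in both fits while CITED2, IRS2 and TXNIP move up and SESN3 moves down without the 2 arrays.

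Between unedited and control, limma called 0 of the 8 genes with the arrays as labelled, and of unadjusted p-values 0 were under 0.05. Over all tested genes 0.0% were called and 463 had an unadjusted p under 0.05. The largest differences were SESN3 at -0.58 (SE 0.40), FOXO1 at 0.54 (SE 0.24), IRS2 at 0.39 (SE 0.33) and CITED2 at 0.31 (SE 0.48), with adjusted p of 0.886 for the first 3 of these and 0.904 for CITED2. TXNIP differed by 0.28 (adjusted p = 0.886) and FOXO3 by 0.12 (adjusted p = 0.908). In 1 of the 8 genes, FOXO1, which the unedited arrays alone carried past the filter, all unedited arrays lay above all control arrays, as in 2.57% of tested genes, and in 0 below, as in 3.58%. The other tested FOXO1 probe set did not have this arrangement.

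Without the 2 arrays that stood apart, which leaves 2 arrays in each of these groups, 5 of the 8 were called between unedited and control, where 41.9% of all tested genes were. IRS2 was higher by 1.07 (SE 0.09, adjusted p = 6.7e-06), CITED2 by 1.25 (SE 0.19, adjusted p = 4.1e-04), TXNIP by 0.72 (SE 0.08, adjusted p = 3.6e-05) and FOXO3 by 0.45 (SE 0.08, adjusted p = 0.00139). SESN3 was lower, at -1.29 (SE 0.29, adjusted p = 0.00439). DEPP1 and BCL6 were not called in either fit, with BCL6 at -0.02 (SE 0.13, adjusted p = 0.903). FOXO1, at 0.73, was not called either (adjusted p = 0.0807). Choosing the arrays this way makes those p-values no independent evidence.

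Between unedited and edited, 4 of the 8 were called, all higher with the unedited form, against 16.4% of all tested genes called higher and 21.8% lower. They were DEPP1, BCL6, TXNIP and FOXO1. Nothing is read from the count, since DEPP1 was chosen by the edited arrays and FOXO1 passed the filter through the unedited arrays alone; of the other 6 genes 2 were called. Without the 2 arrays that stood apart 6 of the 8 were higher and 1 lower, against 25.7% and 34.0% of all tested genes (59.6% in either direction). FOXO1 lost that call when arrays were scaled to the hybridisation controls (a difference of 0.34) or its probe sets were averaged (0.80). CITED2 differed by 1.27 (SE 0.48), IRS2 by 0.22 (SE 0.33) and SESN3 by 0.13 (SE 0.40). This comparison and that of edited with control share the edited arrays, so the lower DEPP1 group is the same in both.

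A wider list of 38 further genes known to be activated by a FOXO factor in some cell type was set beside the 9. It was drawn up from general knowledge, with earlier results of these arrays known, and 28 of its genes were tested. Between edited and control 10 fell and 0 rose, that is 35.7% lower and 0.0% higher, against 15.4% and 18.0% of all tested genes. Their median difference was -0.53, against 0.12 for all tested genes. On 15 of the 28 the 3 edited arrays lay below the other 6 arrays, 53.6% against 18.9% of all tested genes, and on 0 of them above. SELENOP, a gene of the list too dim to test, had 35.5, 22.4 and 20.8 on the edited arrays, above the other 6. Without the filter 36 genes of the list were fitted, and 1 rose and 10 fell. Of all 19775 genes 2243 rose and 1826 fell in that fit. The list's median was then -0.28, against 0.18 for all genes. The split depends on scaling. Scaled to the hybridisation controls 8 rose and 7 fell, and scaled to the poly-A controls 6 rose and 8 fell. The median of all genes moved to 0.51 and 0.41, with the list's median 0.64 below it each time. Such scaling multiplies each whole array by a single factor and shifts all genes nearly alike. That distance could therefore hardly change, and nothing is read from its staying the same.

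The 5 with the smallest p have different known roles. CAT, the antioxidant enzyme catalase, had 355, 302 and 308 with the edited form, against 739.7, 919.6 and 887 in control (-1.40, SE 0.11, adjusted p = 4.3e-05, limma). MXI1, which antagonises MYC, had 377, 315 and 354 with the edited form, against 847, 893 and 842 in control (-1.30, SE 0.10, adjusted p = 3.3e-05). CCNG2, an unconventional cyclin of quiescent cells, had 104, 105 and 95.2 with the edited form, against 373, 284 and 343 in control (-1.70, SE 0.17, adjusted p = 1.5e-04). In each of these genes the edited and control arrays did not overlap. CDKN1B, the cell cycle inhibitor p27, fell by 1.13 on the log2 scale, and TRADD, an adaptor of the TNF receptor, fell by 0.78 but lost its call when probe sets were averaged (adjusted p = 0.415). The others that fell were PINK1, FBXO32, GABARAPL1, KLF6 and IL7R. Scaled to the hybridisation controls PINK1, KLF6 and IL7R were not called (adjusted p = 0.357, 0.0830 and 0.0812).

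Other genes of the list did not pass with all 9 arrays, and the 4 given here were picked after their values were seen. GADD45A, a stress sensor, had 926, 989 and 881 with the edited form, against 874, 589.6 and 630.4 in control, and differed by 0.44 (adjusted p = 0.141). BCL2L11, encoding the death protein BIM, differed by 0.51 (adjusted p = 0.130), and SOD2, the mitochondrial superoxide dismutase, by -0.10 (adjusted p = 0.670). IGFBP1, the classic FOXO target of liver, had 44.0, 1855 and 1468 with the unedited form, 34.9, 20.8 and 35.8 with the edited form, and 1713, 177 and 80.3 in control. Its edited arrays were lowest and the other groups each spanned a wide range, and its difference of -3.25 (SE 1.47) between edited and control was not called (adjusted p = 0.121). All 9 arrays of GADD45A, by comparison, lay between 569 and 989. Without the 2 arrays that stood apart GADD45A was called at 0.61 (adjusted p = 7.3e-05, limma) and IGFBP1 at -1.97 (adjusted p = 2.8e-04). BCL2L11 and SOD2 were not called there (adjusted p = 0.0707 and 0.0806). In that fit 56.1% of all tested genes were called.

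**Figure D3:**
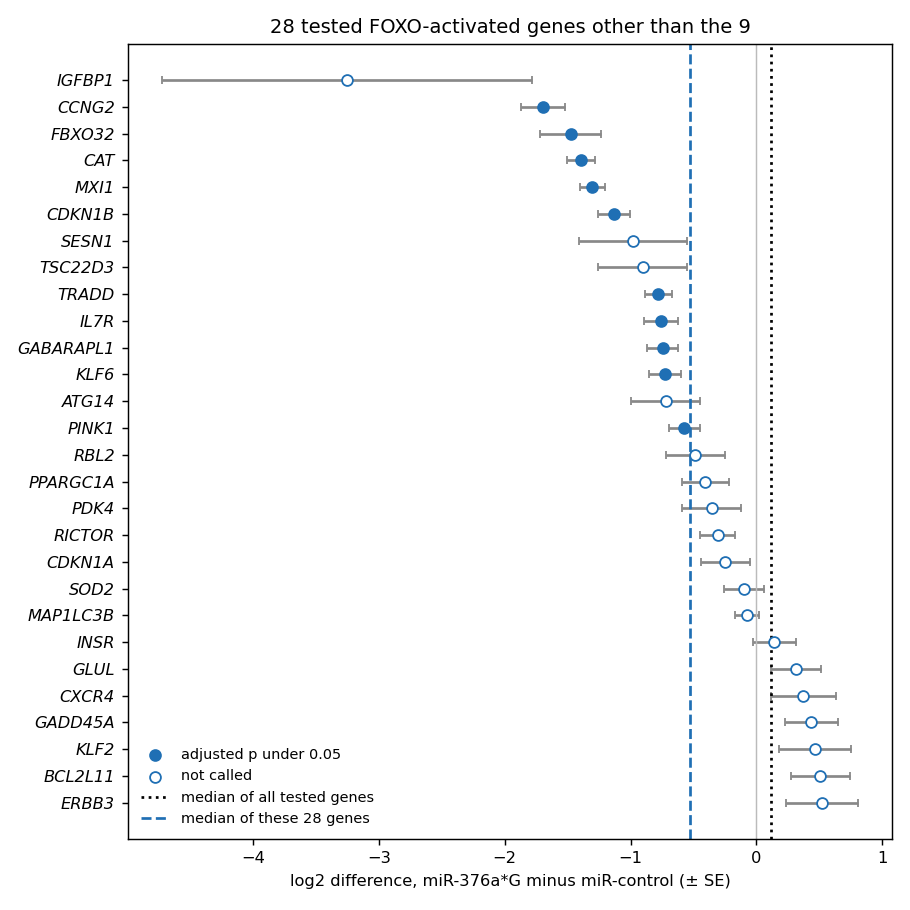
Log2 difference between miR-376a*G and control with its standard error (horizontal axis) for the 28 tested genes of the wider FOXO-activated list; filled points were called, open points were not. The 10 called genes all lie below 0, the list median is -0.53 (dashed line) and the median of all tested genes is 0.12 (dotted line).

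Between unedited and edited, 13 of the 28 were higher and 0 lower (46.4%, against 16.4% of all tested genes called higher), led by CAT (1.53), MXI1 (1.22), CCNG2 (1.95), GABARAPL1 (0.94) and CDKN1B (0.94). Without the filter 13 of 36 were higher and 1 lower, with a median of 0.22. Of all 19775 genes 1921 were higher and 2725 lower in that fit, with a median of -0.21. Scaled to the hybridisation controls, the split was 3 higher and 10 lower, where all tested genes had 686 higher and 8163 lower and a median of -0.80. The list's median lay 0.61 above that of all genes in both scalings, a distance that such scaling can hardly change. With that scaling CDKN1B and GABARAPL1 were not called (adjusted p = 0.153 and 0.0794). Between unedited and control 0 of the 28 were called and 0 had an unadjusted p under 0.05. Without the 2 arrays that stood apart 8 were higher and 6 lower there, against 19.0% and 22.9% of all tested genes, with a median of 0.12. In that fit 3 were higher and 16 lower between edited and control (10.7% and 57.1%, against 31.2% and 25.0% of all tested genes), with a median of -0.55. Of the 3 genes that FOXO factors are known to repress, CCND1 and MYC were tested and 0 were called; CCND1, encoding cyclin D1, differed by 0.16 and MYC by 0.31 between edited and control.

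Of 27 tested genes of the PI3K-AKT pathway and of FOXO modification, 5 rose and 3 fell between edited and control, 18.5% and 11.1%, near the 18.0% and 15.4% of all tested genes, with a median of 0.14 against 0.12. IRS1, the insulin receptor adaptor related to IRS2, had 120.3, 106 and 113 with the edited form, against 532, 437 and 469 in control, and fell by 2.07 log2 units (SE 0.15, adjusted p = 3.1e-05, limma). PIK3CB, a catalytic subunit of PI3K, had 69.2, 62.8 and 64.7 with the edited form, against 153, 318 and 301 in control, and fell by 1.88 (adjusted p = 0.00479). AKT2, a kinase that inactivates FOXO proteins, had 386, 408 and 409 with the edited form, against 215, 183 and 161 in control, and rose by 1.11 (adjusted p = 0.00902), a call lost when probe sets were averaged (adjusted p = 0.169). PHLPP2, a phosphatase that opposes AKT, rose by 1.16 (adjusted p = 0.00192), MDM2, a ubiquitin ligase, by 1.11 (adjusted p = 1.4e-04) and STK3, a kinase that can activate FOXO proteins, by 0.63 (adjusted p = 0.00443; 0.0738 with median-centred arrays). AKT2 and PHLPP2, whose known effects on FOXO proteins are opposite, thus both rose.

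Calls of 2 regulators rested on single arrays. PRMT1, a methyltransferase that acts on FOXO1, rose by 0.38 (adjusted p = 0.0241), and was not called without any one of edited replicates 1 or 2 (0.0916 and 0.0725) or control replicates 1 or 2 (0.0601 and 0.0741), or with median-centred arrays (0.551). CREBBP, an acetyltransferase and coactivator, fell by 0.64 (adjusted p = 0.0144) and was not called without edited replicate 2 (adjusted p = 0.0576) or control replicate 2 (0.0584), or with hybridisation or poly-A control scaling (0.326 and 0.149). AKT1, PDPK1, SGK1 and SIRT1, picked after their values were seen, differed by 0.14, 0.05, 0.19 and 0.36 and were not called. Without the 2 arrays that stood apart 9 regulators were higher and 6 lower between edited and control (33.3% and 22.2%, near the 31.2% and 25.0% of all tested genes). Between unedited and edited 5 regulators were higher, namely IRS1 (2.12), YWHAZ, PIK3CB, PPP2CA and IGF1R, and 6 lower, led by MDM2 (-1.08), PHLPP2 (-1.37), STK3, PRMT1 and AKT2. These are 18.5% and 22.2% of the list, near the 16.4% and 21.8% of all tested genes. Among these, YWHAZ and PIK3CB were not called with hybridisation control scaling (adjusted p = 0.241 and 0.0715), STK3 and PRMT1 with median-centred arrays (0.0993 and 0.382), and AKT2 with averaged probe sets (0.154). The calls of PPP2CA and IGF1R were lost without some single arrays. For PPP2CA these were unedited replicate 3 and edited replicates 1 and 3 (adjusted p = 0.0838, 0.0765 and 0.0863). For IGF1R they were unedited replicates 2 and 3, edited replicates 1, 2 and 3 and control replicate 2 (0.109, 0.104, 0.0742, 0.131, 0.0569 and 0.0607). Between unedited and control 0 of the 27 were called, and the unadjusted p of 3 was under 0.05. Leaving out the 2 arrays, 10 were higher and 8 lower there (37.0% and 29.6%, against 19.0% and 22.9% of all tested genes).

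Relatives of the 9 genes did not all share their pattern. Of 8 tested, 3 fell and 1 rose between edited and control (37.5% and 12.5%, against 15.4% and 18.0% of all tested genes); IRS1 and SESN1 belong also to the lists above. ARRDC3 and ARRDC4 are arrestin-family relatives of TXNIP. ARRDC3 had 497, 598 and 633 with the unedited form, 84.4, 100.4 and 76.8 with the edited form, and 583, 561 and 518 in control, and fell by 2.66 between edited and control (SE 0.14, adjusted p = 9.7e-06, limma). ARRDC4 fell by 1.44 (SE 0.26, adjusted p = 0.00292). TXNIP, ARRDC3 and ARRDC4 were thus lowest with the edited form, and other members of that family were not looked at. Thioredoxin itself, TXN, differed by 0.03 (adjusted p = 0.828).

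Of the other sestrins 1 rose. SESN2 had 587, 564 and 648 with the edited form, against 385, 265 and 153 in control, and rose by 1.26 (adjusted p = 0.0133; 0.0502 without edited replicate 3). SESN1 had 118, 277 and 286 with the unedited form, 68.3, 66.2 and 68.1 with the edited form, and 255, 87.6 and 108 in control. Its edited arrays were lowest, but its difference of -0.98 from control was not called (adjusted p = 0.111). Between unedited and edited SESN1 was higher by 1.63 (adjusted p = 0.0164), a call lost without unedited replicate 2 (0.0575), unedited replicate 3 (0.0647) or edited replicate 2 (0.0506). SESN2 was lower there, at -1.03 (adjusted p = 0.0276), and was not called without any one of unedited replicates 1 or 3 (0.0594 and 0.0672) or edited replicates 1, 2 or 3 (0.0720, 0.0638 and 0.0863).

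CITED2 also answers to hypoxia, so 12 hypoxia-responsive genes were set beside the FOXO genes. That list, too, was drawn up with earlier results of these arrays known, so its counts are no independent evidence. Of 11 tested, 10 fell and 0 rose between edited and control, 90.9% against the 15.4% of all tested genes called lower, with a median of -1.78. PDK1 was at -2.62, NDRG1 at -2.77, ANKRD37 at -2.25, SLC2A1 at -2.22 and BNIP3L at -1.34, each with an adjusted p of 3.9e-05 or less. The part of this group in the FOXO genes' values was not tested.

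The profile of DEPP1 over the 9 arrays was closest to those of PPL, NFATC2, EFCAB13-DT, KCTD21 and MAP7D2. Closeness is the root mean square difference between log2 signals after each gene is centred on its mean, which was 0.42, 0.49, 0.52, 0.52 and 0.56 for these genes over 9 arrays that share their groups. PPL, which encodes the cytoskeletal linker periplakin, had 128, 149 and 184 with the unedited form, 2.79, 2.79 and 2.21 with the edited form, and 143, 126 and 147 in control. MAP7D2 was lower on unedited replicate 1 and control replicates 2 and 3, at 29.5, 37.2 and 30.0, than on the remaining arrays of those groups, at 65.6, 73.7 and 70.2. This measure keeps the size of each change, so a gene that follows the groups with a smaller change cannot be near. Between edited and control the 5 genes differed by -5.28 to -3.72, against -1.26 for BCL6. The edited arrays that chose DEPP1 also enter the measure. No other gene followed here or on the wider FOXO list was among the 5, which says nothing on whether they follow DEPP1.

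**Figure D4:**
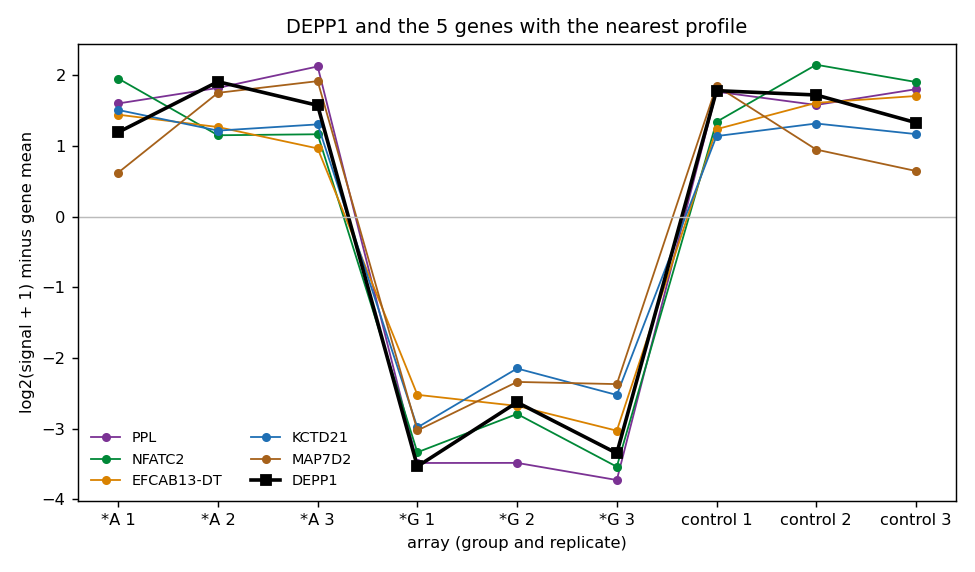
Log2(signal + 1) minus the gene's mean (vertical axis) on each of the 9 arrays for DEPP1 (black squares) and the 5 genes with the nearest profile. All 6 genes are low on the 3 miR-376a*G arrays and high on the other 6, with PPL nearest to DEPP1 at a root mean square difference of 0.42.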

How the data were processed

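Total RNA of 9 U87 samples was hybridised to Affymetrix arrays, 1 array per sample. The authors deposited linear intensity values; the submitters' processing notes name GCOS 1.4.0.036, and how probes were summarised is not given in the sources used here. Deposited intensity was already scaled on each array to a mean near 100 after trimming 2% at each end (100.01 on every array). There are no depths for arrays, so the number of arrays limits precision. With 3 arrays a group, the smallest p an exact permutation test allows is 0.1.

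The probe table listed 42898 of 54675 probe sets, 1801 of them with several genes, which were left out with the 11777 unlisted. Of 19775 genes, 19735 matched RefSeq GRCh38.p14. Linear models were fitted to log2(signal + 1) with limma 3.58.1 in R 4.3.3, 1 coefficient per group, 6 residual degrees of freedom, eBayes with an intensity trend, tests two-sided. The steps were tested on simulated data. No pair of arrays held identical values.

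Replicate numbers are shared across groups, and whether they pair the arrays is not known. Deviations of same-numbered arrays from their group means correlated at -0.881 to 0.0457. The arrays that stood apart enter those group means, so these correlations cannot settle it. The members, lists and settings were chosen with earlier results of these data known. Named genes are the 9 members, up to 5 called genes of each list and direction with the smallest p, and the 5 genes nearest to DEPP1. Of the lists, 2 FOXO-activated genes, 5 regulators and 1 hypoxia-responsive gene had no single-gene probe set in the table and were not analysed here. Alternatives covered arrays, weights, pseudocounts, filters, scalings, probe sets and the variance prior.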

Additional observations from a re-analysis of the deposited data

Results flagged for a closer look

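Probe sets that name FOXO3 together with FOXO3B were kept out of the comparisons because they cannot be given to 1 gene. All 3 of them were higher on edited than on control arrays, by 0.98, 1.13 and 0.88 on the log2 scale, and on each the 3 edited arrays lay above the other 6. For the brightest the signal was 191, 179 and 206 on edited arrays, against 106, 93.7 and 90.4 on control arrays. These differences were not tested.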

How the results depend on the processing

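Between edited and control, DEPP1 stayed lower under all 23 settings run (-5.05 to -2.42), as under all run for them did BCL6 (-1.49 to -0.86), TXNIP (-1.25 to -0.62), CITED2 (-1.31 to -0.55) and FOXO1 (-0.69 to -0.07), and FOXO3 stayed higher (0.28 to 0.91). DEPP1 was chosen by that comparison on the same arrays, so nothing is read from its staying lower. Between unedited and control, directions near 0 turned. DEPP1 was at 0.22 without both arrays that stood apart, at 0.0325 with array weights and at 0.0725 with poly-A scaling; FOXO3 was at -0.15 with hybridisation control scaling; BCL6 was at 0.0243 with weights and 0.0965 with poly-A scaling. With array weights 6 of the 8 tested genes were called there, where of all 12587 tested genes 2476 were called higher and 3037 lower. They were the 5 called without the 2 arrays and FOXO1 (0.72, adjusted p = 0.0177, limma). FOXO1 passed the filter only through the unedited arrays, so nothing is read from its call. Leaving out 1 array at a time gave -0.23 to 0.13 for DEPP1, -0.0459 to 0.838 for CITED2 and -0.0664 to 0.0142 for BCL6.

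Counts of called genes grew without the 2 arrays and with array weights. Between edited and control they were 7066 and 7865 of all genes, 19 and 22 FOXO-activated genes, and 15 and 17 regulators. Between unedited and control they were 5268 and 5513, 14 and 15, and 18 and 18. Between unedited and edited they were 7508 and 7866 of all genes, and 17 and 17 regulators. Hybridisation control scaling gave 6510 genes and 15 regulators between edited and control, and 8849 genes and 19 regulators between unedited and edited. Testing every probe set gave 7847 and 8785 called probe sets of 24316, a count of more features. The share of calls that were higher between edited and control was 53.9%, against 29.2% with median-centred arrays, 85.4% with hybridisation control scaling and 80.7% with poly-A scaling. The cause of these changes was not tested. Leaving out 1 array at a time gave 2994 to 4952 genes between edited and control, 3497 to 5602 between unedited and edited, and 0 between unedited and control.

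With the replicate number as a block, 2936 genes, 10 FOXO-activated genes and 6 regulators were called between edited and control. Between unedited and edited they were 3453, 10 and 9, and between unedited and control 0. Whether replicate numbers pair the arrays is not known. Arrays in such numbers, and dim probe sets such as those of FOXO1 and FOXO4, limit what can be told apart.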
